A study of Sus scrofa with 4 samples.

Results

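The genes described here are those of the insulin-like growth factor (IGF) system: the ligands IGF1 and IGF2, the receptor IGF1R, the binding proteins IGFBP2 to IGFBP7 and the protease PAPPA2, as they were counted in single cells of whole pig testis. Members were chosen by gene symbol, and 7 of the 10 were found by symbol among the 31908 features of the count tables. IGFBP6 was matched by its gene identifier through a table of gene names, which brings the number to 8. IGF2 and IGFBP3 had no feature of that name and were not analysed here. Each of the 8 genes has 1 feature.

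IGF1 and IGF2 are small secreted hormones that act on the receptor tyrosine kinase IGF1R, which signals through the insulin receptor substrates, PI3 kinase and AKT. The binding proteins hold the ligands in the fluid around cells and can lower or raise their action, and pappalysin proteases such as PAPPA2 free the ligand by cutting binding proteins. In the testis, IGF signalling is known for its part in the proliferation of Sertoli cells and in the development of steroid-producing Leydig cells.

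Testis cell suspensions of pigs (Sus scrofa) aged 7, 30, 60 and 90 days were each sequenced as 1 library, made with the third version of the 10x Chromium 3′ kit. The labels give no breed, genotype, treatment or number of animals, so whether animals were pooled is not known. With 1 library per age, age and library cannot be told apart, no test between ages was possible and no p-value is given. The intervals below are exact 95% intervals for counting error only.

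The 4 libraries held 69602 barcodes, against 86453 captured cells stated in the labels, and 45717373 to 96133720 counts of unique molecular identifiers (UMIs). After filters 55798 barcodes were left, and after removal of 7829 likely doublets 47969 cells were used: 12086, 14606, 10376 and 10901 in order of age, which throughout means 7, 30, 60 and 90 days. Their median depth was 4972, 2840, 2482.5 and 2541 UMIs. The 60-day library stood apart, with 4498 barcodes below the minimum of 1000 UMIs (1367 to 2606 in the others). Pairs of libraries shared 78 to 115 barcodes, 44 to 77 of them after filters. In order of age 4.58%, 5.12%, 25.9% and 29.8% of cells were left without a class.

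Cells were put in classes by fixed marker genes, none of them a member of the IGF system, and the classes carry the ending "-like" because the names rest on those markers. Sertoli-like cells, which nurse the germ cells, numbered 6092, 5457, 3751 and 1521 in order of age. Interstitial stromal-like cells, marked by PDGFRA and collagens, numbered 3296, 5054, 2855 and 1736. Peritubular myoid-like cells, the contractile sheath of the tubules, numbered 45, 746, 162 and 594. At 30 and 60 days their median score on the stromal markers (3.23 and 3.78) was above that on the myoid markers (2.80 and 2.86), and at 90 days it was below (2.62 and 3.82). Spermatogonia-like cells, the germ cells before meiosis, numbered 469, 723, 227 and 758, and 1075 spermatid-like cells were found in the 90-day library. A level is the UMIs of a gene per 1000000 UMIs (CPM, counts per that number) summed over all cells of a class in a library, and was taken where the class had at least 50 cells. At 60 days the Leydig-like (41 cells), pericyte or vascular smooth muscle-like (48) and lymphatic endothelial-like (45) classes fell below that number.

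The stromal-like class was not uniform at 30 and 60 days. When all cells were clustered without the IGF genes, 46.3% of the 30-day stromal-like cells were in cluster 3, which also held 93.8% of the 30-day myoid-like cells, and 47.7% were in cluster 6. At 60 days 35.2% of them were in cluster 2, a shallow cluster with no name (median 1337 UMIs, 4409 of its 4461 cells from that library), and 26.4% in cluster 3. Levels of the stromal-like class at those ages are therefore given also without clusters 2 and 3.

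IGF1, the ligand, is encoded on chromosome 5 (81762027 to 81909253, build Sscrofa11.1). In stromal-like cells its level was 71.9 CPM (67.1 to 76.9), 231.5 (223 to 241), 273.7 (262 to 286) and 655.8 (631 to 681) in order of age. The level was higher at each later age, and the 90-day value was 9.13-fold the 7-day value (log2 ratio 3.19, 3.08 to 3.30). The share of stromal-like cells with an IGF1 UMI, each cell thinned to 2000 UMIs, was 12.2%, 32.0%, 34.9% and 62.1%, and 18.96%, 34.4%, 32.4% and 62.4% without thinning. In T or NK-like cells, which served as the class for background from free RNA, the thinned share was 1.45%, 0%, 0% and 3.12%. It came from only 138, 36, 51 and 32 cells, with intervals of up to 5.14%, 9.74%, 6.98% and 16.2%. Without clusters 2 and 3 the stromal-like level was 249 CPM at 30 days and 457 at 60 days, so the order of the ages was the same.

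Lymphatic endothelial-like cells, which line the lymph vessels, had the opposite order for IGF1. Their level was 444.6 CPM (390 to 504), 330.1 (274 to 394) and 215.5 (174 to 264) at 7, 30 and 90 days, in 87, 136 and 152 cells. The log2 ratio of 90 to 30 days was -0.62, under 2-fold. Thinned shares of cells with a UMI were 52.5%, 46.4% and 34.4%.

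Myoid-like cells had 291.9 CPM of IGF1 (266 to 319), 198.2 (161 to 241) and 264.8 (238 to 294) at 30, 60 and 90 days. In macrophage or monocyte-like cells the level was 19.9 CPM (14.98 to 25.9), 147.2 (126 to 171), 45.2 (32.7 to 60.8) and 28.0 (10.3 to 60.8) in order of age. The macrophage value stood out at 30 days, when 24.9% of thinned cells had an IGF1 UMI against 2.76%, 9.28% and 3.28% at the other ages. In Sertoli-like cells the gene was at 0.352, 1.28, 4.66 and 2.01 CPM, and Leydig-like cells held 3 counts or fewer in each library.

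The order of the classes for IGF1 differed between libraries. At 7 days lymphatic endothelial-like cells stood first, above stromal-like and then macrophage-like cells, with intervals of each ratio that excluded equality. At 30 days lymphatic and myoid-like cells did not differ beyond counting error, and both stood above stromal-like cells. At 60 days, without a lymphatic value, and at 90 days stromal-like cells stood first, and myoid and lymphatic cells at 90 days did not differ beyond counting error. Of all IGF1 counts, stromal-like cells gave 68.4%, 73.5%, 75.0% and 73.3% in order of age, and lymphatic endothelial-like cells 19.7% at 7 days.

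IGF1R (chromosome 1, 137383623 to 137691038) encodes the receptor that binds both ligands. Blood endothelial-like cells had its highest level in each library, at 54.2 CPM (45.4 to 64.1), 61.5 (50.4 to 74.2), 89.8 (56.3 to 136) and 57.0 (46.6 to 69.0) in order of age. The intervals of these 4 values overlap, and the log2 ratio of 90 to 7 days was 0.07 (-0.31 to 0.45). The next class was spermatogonia-like at 7 and 30 days, where blood endothelial-like cells were 2.32-fold and 2.76-fold higher, and Sertoli-like at 60 and 90 days, 3.85-fold and 1.86-fold. The thinned share of blood endothelial-like cells with an IGF1R UMI was 9.69%, 10.2%, 14.6% and 11.2%, and T or NK-like cells held 1, 0, 1 and 0 counts of the gene.

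Sertoli-like cells had 17.96 CPM of IGF1R (16.7 to 19.3), 12.01 (10.7 to 13.4), 23.3 (21.2 to 25.6) and 30.7 (27.7 to 33.9) in order of age. The 90-day value was the highest, with a log2 ratio to 7 days of 0.77, under 2-fold. These cells gave 55.1%, 34.2%, 53.4% and 42.7% of the receptor's counts. Spermatogonia-like cells stayed between 20.0 and 23.3 CPM in the 4 libraries, with overlapping intervals. Stromal-like cells had 11.8, 13.03, 21.1 and 18.1 CPM.

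IGFBP2 (chromosome 15, 118822092 to 118850985) encodes a binding protein abundant in fetal and neonatal tissues. In stromal-like cells it was at 371.6 CPM (361 to 383), 171.2 (164 to 179), 129.9 (122 to 139) and 20.9 (16.7 to 25.8) in order of age. The level was lower at each later age, and the 90-day value was 17.8-fold below the 7-day value (log2 ratio -4.15, -4.48 to -3.84). Thinned shares of cells with a UMI were 45.4%, 25.8%, 22.3% and 4.46%, and unthinned shares 57.7%, 27.0%, 21.6% and 4.55%. Without clusters 2 and 3 the level was 227 CPM at 30 days and 206 at 60 days, between the 7-day and 90-day values.

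In spermatogonia-like cells IGFBP2 had 144.9 CPM (137 to 153), 115.4 (108 to 123), 87.3 (74.7 to 101) and 43.3 (38.4 to 48.7) in order of age, again lower at each later age. With each cell thinned to 2000 UMIs the 7-day and 30-day levels were 94.4 and 89.5 CPM, and the log2 ratio of 90 to 7 days was -1.66. Without thinning that ratio was -1.74 (-1.93 to -1.56), 3.34-fold lower, where the median of all features in this class was -0.21. Thinned to 2000 UMIs, 15.5%, 15.5%, 13.8% and 5.66% of these cells held a UMI of the gene, and 67.0%, 52.3%, 34.8% and 23.7% without thinning, at median depths of 18661, 11221, 3506 and 8309 UMIs. The class had many cells near its limit, with 132, 250, 108 and 424 cells less than 0.2 above the score required, and 52.9% of the 60-day cells lay in the shallow cluster 2. Of the 7-day cells 98.5% were in cluster 11 and of the 90-day cells 78.2% in cluster 8, which carries no name, so the ratio compares cells of different clusters. At 90 days spermatogonia-like cells gave 49.3% of all IGFBP2 counts and stromal-like cells 14.6%, against 16.7% and 53.4% at 7 days.

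T or NK-like lymphocytes held IGFBP2 in the early libraries. Their level was 134.9 CPM (108 to 166), 55.9 (33.7 to 87.3), 7.66 (1.58 to 22.4) and 11.5 (3.14 to 29.5) in order of age, from 88, 19, 3 and 4 counts. The 7-day value was above the level of the whole library (106.5 CPM), whereas macrophage-like cells of the same library had 3.25 CPM (1.49 to 6.18). Among 143 of the 7-day lymphocytes with a UMI of a CD3 gene, 25.2% (18.3% to 33.1%) held a UMI of IGFBP2. The 17 cells without a CD3 UMI held none, with an interval of up to 19.5%, so the intervals overlap. Stromal markers in these lymphocytes summed to 230, 247, 429 and 227 CPM in order of age, with 7 of the 8 markers counted and TCF21 at 0. The part of other cells' RNA in the lymphocyte value was not tested.

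Lymphatic endothelial-like cells had 150.7 CPM of IGFBP2 (120 to 187), 29.5 (14.7 to 52.8) and 13.8 (5.05 to 29.9) at 7, 30 and 90 days. At 7 days the order was stromal-like first, then lymphatic, spermatogonia-like and T or NK-like cells, whose neighbouring levels did not differ beyond counting error. At 90 days spermatogonia-like cells stood first, 43.3 CPM, and pericyte, stromal, blood endothelial and myoid-like cells lay between 19.6 and 21.6 CPM with overlapping intervals. Sertoli-like cells were low in every library, at 21.9, 4.71, 14.5 and 1.04 CPM.

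IGFBP4 (chromosome 12, 21966524 to 21980043) encodes a binding protein best known for holding ligands back from the receptor. Stromal-like cells kept it in a narrow range, with 287.1 CPM (277 to 297), 322.5 (312 to 333), 255.8 (244 to 268) and 331.5 (314 to 350) in order of age. The log2 ratio of 90 to 7 days was 0.21, less than the median of all features in this class (0.46). Under scaling by trimmed mean of M values (TMM) it was -0.27, so the sign depended on the scaling. In myoid-like cells the gene was at 342.7 CPM (315 to 372), 299.3 (253 to 351) and 158.6 (138 to 181) at 30, 60 and 90 days. There the 90-day value was 2.16-fold below the 30-day value (log2 ratio -1.11, -1.34 to -0.88).

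In lymphatic endothelial-like cells IGFBP4 had 180.1 CPM (146 to 219), 257.7 (209 to 315) and 165.1 (129 to 208) at 7, 30 and 90 days. Pericyte or vascular smooth muscle-like cells, which wrap vessels, had 152.8 (120 to 192), 75.2 (48.2 to 112) and 72.3 (54.8 to 93.7), and the 7-day value lay above the other two. Myoid-like and stromal-like cells did not differ beyond counting error at 30 and 60 days, and at 90 days stromal-like cells stood above all others. Sertoli-like cells had 14.8, 20.3, 12.2 and 2.89 CPM. T or NK-like cells held 11, 2, 3 and 1 counts.

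IGFBP5 (chromosome 15, 118861816 to 118877787) lies 10830 bases from IGFBP2 and encodes a binding protein that attaches to extracellular matrix. Stromal-like cells had 534.8 CPM (522 to 548), 167.5 (160 to 175), 232.6 (221 to 244) and 258.0 (243 to 274) in order of age. The 7-day library stood alone, and the later 3 were within 167.5 to 258.0 CPM. The 90-day value was 2.07-fold below the 7-day value (log2 ratio -1.05, -1.15 to -0.96), close to the 2-fold limit, and -0.9992, just under it, with a stricter filter on cells. Without clusters 2 and 3 the 30-day level was 205 CPM and the 60-day level 356. The neighbouring genes IGFBP2 and IGFBP5 thus had different courses in these cells after 30 days.

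Blood endothelial-like cells had 224.6 CPM of IGFBP5 (206 to 244), 338.2 (312 to 366), 359.2 (288 to 443) and 263.5 (241 to 288) in order of age, with the 30 and 60-day values highest. Pericyte or vascular smooth muscle-like cells had 305.6 (258 to 359), 382.3 (318 to 457) and 227.1 (195 to 263) at 7, 30 and 90 days. In lymphatic endothelial-like cells the level was 99.2 CPM (74.5 to 129), 182.5 (142 to 231) and 369.2 (314 to 431). That was higher at each later age, with a log2 ratio of 90 to 30 days of 1.02 (0.60 to 1.45) and 62.7% of the 90-day counts in the tenth of cells with the most counts. Under 6 other settings that ratio was under 2-fold (0.61 to 0.98).

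The order for IGFBP5 also differed between libraries. Stromal-like cells stood first at 7 days, pericyte-like and blood endothelial-like cells together at 30 days, blood endothelial-like cells at 60 days, where neither pericyte-like nor lymphatic cells were measured, and lymphatic endothelial-like cells at 90 days. Myoid-like cells had 82.8, 31.7 and 72.8 CPM at 30, 60 and 90 days. At 90 days the 60 myoid-like cells of cluster 18 had 596.5 CPM and the 516 of cluster 19 had 6.0. Pericyte markers summed to 962 CPM in those of cluster 18 and 118 in those of cluster 19, with KCNJ8 and ABCC9 at 0 in both, so the myoid level rested on a small group of cells with pericyte markers.

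IGFBP6 (chromosome 5, 18352884 to 18357225) encodes a binding protein that prefers IGF2. It was the member whose counts were most concentrated in stromal-like cells, which gave 91.5%, 92.1%, 78.7% and 87.1% of its counts in order of age. Their level was 457.1 CPM (445 to 470), 703.3 (688 to 719), 842.3 (821 to 864) and 2307 (2260 to 2354) in order of age. The level was higher at each later age, and 5.05-fold higher at 90 than at 7 days (log2 ratio 2.34, 2.29 to 2.38). Thinned shares of cells with a UMI were 39.0%, 43.0%, 50.8% and 79.6%, against 0%, 0%, 0% and 3.12% in T or NK-like cells. The latter came from 138, 36, 51 and 32 cells, with intervals of up to 2.64%, 9.74%, 6.98% and 16.2%. Without clusters 2 and 3 the level was 1228 CPM at 30 days and 1573 at 60 days.

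The next classes for IGFBP6 were far below. Myoid-like cells had 98.5 CPM (84.0 to 115), 255.7 (213 to 304) and 61.1 (48.8 to 75.7) at 30, 60 and 90 days, and pericyte-like cells 43.4, 50.1 and 130.7 CPM at 7, 30 and 90 days. In Sertoli-like cells the level was 2.16, 3.87, 17.4 and 8.03 CPM, and the 60-day value was 9.85 CPM without the cells of clusters 2 and 3. Stromal markers in Sertoli-like cells summed to 764, 485, 650 and 139 CPM in order of age, and their part in these low values was not tested.

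IGFBP7 (chromosome 8, 56283089 to 56357822) encodes a matrix protein of vessel walls that binds IGFs weakly. Myoid-like cells had its highest level wherever they were measured, with 9917 CPM (9765 to 10070), 12160 (11857 to 12468) and 8524 (8370 to 8680) at 30, 60 and 90 days. Pericyte or vascular smooth muscle-like cells followed at 30 and 90 days, with 6853 (6622 to 7091), 8076 (7767 to 8394) and 5128 (4971 to 5289) at 7, 30 and 90 days. Each neighbouring pair of classes in this order, from the top down to lymphatic endothelial-like cells where these were measured, differed beyond counting error in each library.

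Blood endothelial-like cells had 6391 CPM of IGFBP7 (6293 to 6491), 4405 (4308 to 4504), 5200 (4918 to 5493) and 2898 (2821 to 2978) in order of age. The 90-day value was 2.21-fold below the 7-day value (log2 ratio -1.14, -1.19 to -1.10). Lymphatic endothelial-like cells had 1790, 2150 and 846.1 CPM at 7, 30 and 90 days. Both endothelial classes thus had their lowest level in the 90-day library.

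In stromal-like cells IGFBP7 was at 3594 CPM (3559 to 3628), 6309 (6263 to 6356), 5685 (5629 to 5741) and 2395 (2347 to 2443). The higher values at 30 and 60 days went with cluster membership, since without clusters 2 and 3 they were 3590 and 3358 CPM, close to the 7-day value. Sertoli-like cells had 430.9, 348.3, 1004 and 671.2 CPM, with thinned shares of cells with a UMI of 53.8%, 45.5%, 81.1% and 70.7%. In T or NK-like cells, the background class, the thinned share was 13.04%, 2.78%, 29.4% and 12.5%, from 138, 36, 51 and 32 cells. In this class and macrophages the level was 59.8 to 227 and 49.9 to 158.6 CPM.

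PAPPA2 (chromosome 9, 118362663 to 118635972) encodes a protease that cuts IGFBP3 and IGFBP5. It was a low gene, counted in germ cell classes and in 90-day myoid-like cells. Spermatogonia-like cells had 8.45 CPM (6.69 to 10.5), 10.8 (8.75 to 13.2), 11.2 (7.04 to 17.01) and 6.56 (4.75 to 8.84) in order of age, from 79, 97, 22 and 43 counts. They gave 76.7% and 72.4% of all counts of the gene at 7 and 30 days. The thinned share of these cells with a UMI was 2.36%, 2.80%, 3.14% and 1.07%. Spermatocyte-like cells, in meiosis, had 10.8 CPM at 30 days and 7.36 at 90 days, and spermatid-like cells 5.58 CPM at 90 days.

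Myoid-like cells held 0 counts of PAPPA2 at 30 days and at 60 days, with intervals of up to 2.23 and 7.31 CPM, and 74 counts at 90 days, or 53.8 CPM (42.3 to 67.6). The 90-day level was 29.7-fold the value of 3 counts over the class (1.81 CPM), which stood in for the 0 counts at 30 days. That ratio is not a lower limit. At 90 days 10.1% of myoid-like cells held a UMI of the gene, and 9.57% after thinning. The myoid-like cells of cluster 19 had 63.1 CPM, and those of cluster 18 had 0. Stromal-like cells had 0.0858, 0.621, 1.72 and 2.24 CPM from 1, 7, 12 and 9 counts.

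The 30-day stromal-like cells were split nearly evenly between 2 clusters, and the IGF genes differed between them within that library. The clusters were drawn from the expression of other genes, and no share of all features is given for this split. The values thus describe the IGF genes without setting them apart from other genes. IGFBP6 was at 101 CPM in the 2338 cells of cluster 3 and 1390 CPM in the 2411 cells of cluster 6 (log2 ratio -3.79, -3.92 to -3.66). IGFBP7 was at 9450 and 3361 CPM in the same order (log2 ratio 1.49, 1.47 to 1.52), and IGFBP4 at 421 and 241 CPM (0.81). These 2 genes were the higher ones in cluster 3.

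IGF1R was at 7.45 and 19.2 CPM in clusters 3 and 6, IGFBP2 at 107 and 206 CPM, IGFBP5 at 125 and 226 CPM and IGF1 at 212 and 271 CPM, all lower in cluster 3. Peritubular myoid markers summed to 3689 CPM in cluster 3 and 839 in cluster 6, with ACTA2, smooth muscle actin, at 1578 and 131 CPM. Stromal markers summed to 14921 and 30235 CPM. PDGFRA was at 475 and 441 CPM and Sertoli markers at 368 and 389 CPM, so these hardly separated them. The stromal-like cells of cluster 3 thus had low IGFBP6 and high IGFBP7 beside their myoid markers, as the myoid-like class had at 30 days (98.5 and 9917 CPM). IGF1 did not follow, being lower in cluster 3 than in cluster 6 and at 291.9 CPM in the myoid-like class. That class is no independent reference. Cells passing both the stromal and the myoid score were put in it, and 93.8% of it was in cluster 3.

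Dividing cells of a class were set apart by a score of cell-cycle genes and compared with the other cells of the same class and library, where both groups held at least 50 cells. In stromal-like cells IGFBP5 was lower in the dividing cells at 7, 30 and 60 days, at 179 against 573 CPM, 36.5 against 177 CPM and 98.3 against 239 CPM. IGF1 was at 32.5 against 76.1, 118 against 240 and 85.6 against 283 CPM. IGFBP4 and IGFBP6 were lower in the dividing cells too, IGFBP6 at 298 against 474, 296 against 732 and 292 against 868.5 CPM. These 4 genes lay on the same side in all 3 libraries, with 207, 203 and 114 dividing cells. No share of all features is given for dividing against other cells, in this class or in those below. The values thus describe the IGF genes without setting them apart from other genes. At 30 and 60 days they are of the whole stromal-like class, and the part of its mix of clusters was not tested.

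IGFBP2 was higher in dividing stromal-like cells at 7 days (523 against 355 CPM, log2 ratio 0.56) and 30 days (361 against 158 CPM, 1.19), and did not differ beyond counting error at 60 days. In dividing spermatogonia-like cells it was higher at 7 days (221 against 119 CPM) and 30 days (158 against 107 CPM) and lower at 90 days (25.9 against 53.9 CPM). In blood endothelial-like cells at 7 days it was at 91.0 CPM in 56 dividing cells and 40.6 CPM in the others. Sertoli-like cells had 29.8 against 19.9 CPM at 7 days and 29.2 against 13.9 CPM at 60 days, and at 30 days 5.90 against 4.68 CPM, which did not differ beyond counting error.

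**Figure D1:**
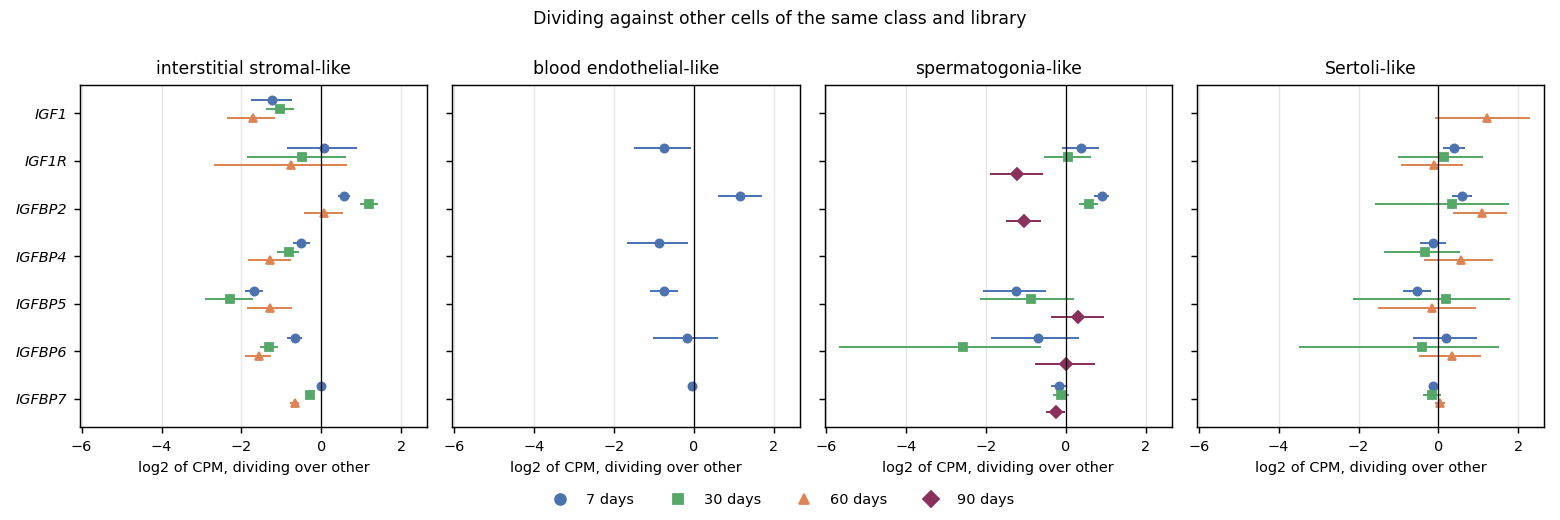
Log2 ratio of the IGF genes' levels in dividing cells to those in the other cells of the same class and library, with exact 95% intervals for counting error. In stromal-like cells at 7, 30 and 60 days IGF1, IGFBP4, IGFBP5 and IGFBP6 lie below 0, and IGFBP2 lies above 0 at 7 and 30 days.

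Latest and earliest ages were compared in 10 classes with at least 100 cells at both, mostly 90 against 7 days, 90 against 30 days for myoid and lymphatic cells and 60 against 7 days for macrophages. A gene was counted as higher or lower when it had at least 10 counts in both libraries together and differed at least 2-fold. IGFBP2 was lower in 9 of the 10 comparisons, and in the other one, macrophages, it had 3 and 9 counts. Its log2 ratio was -4.39 (-5.30 to -3.61) in Sertoli-like, -3.55 in T or NK-like, -2.69 in Leydig-like, -2.26 in pericyte-like, -2.02 in myoid-like, -1.35 in blood endothelial-like and -1.10 (-2.82 to 0.46) in lymphatic cells, where it was under 2-fold under 3 other settings (-0.86 to -0.67). The share of all features that were lower ran from 6.1% to 29.3% over the 10 classes. Cells of a library share its free RNA, and the IGFBP2 level of the whole library was 106.5, 62.5, 47.6 and 12.1 CPM, with a part in the low classes that was not tested. Stromal markers, whose cells had the most IGFBP2 counts at 7 days, gave Sertoli-like cells 764 and 139 CPM in the first and last library (7 of 8 counted in the last, TCF21 at 0) and Leydig-like cells 2036 and 905 CPM (7 of 8, TCF21 at 0), and their part was not tested either.

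In stromal-like cells 3 of the 8 members were higher (IGF1, IGFBP6 and, from 1 and 9 counts, PAPPA2), where 31.6% of the 16585 features were, and 2 were lower (IGFBP2 and IGFBP5), against 7.54%. Spermatid markers in stromal-like cells summed to 0.6003, 0.266, 3.02 and 2746 CPM in order of age (3, 2, 5 and 8 of the 8 markers counted) and myoid markers to 1725, 2251, 1609 and 1054 CPM, and their part in these differences was not tested. In Sertoli-like cells 2 of 8 were higher (IGF1 and IGFBP6) against 32.3% of features, and 3 were lower (IGFBP2, IGFBP4 and IGFBP5) against 13.8%. For IGFBP4 the Sertoli-like value was 5.12-fold lower and for IGFBP5 it was 6.91-fold lower. At 7 days both lay below the whole library, at 14.8 against 64.2 CPM and 16.1 against 107.5 CPM. IGF1 in Sertoli-like cells had 14 and 25 counts at 7 and 90 days. At 90 days IGF1 and IGFBP6 were at 2.01 and 8.03 CPM there, against 75.4 and 223 CPM in the whole library. The part of free RNA and of the stromal markers given above in these Sertoli-like values was not tested. In myoid-like cells IGF1R (from 11 to 21 counts) and PAPPA2 were higher against 25.5% of features, and IGFBP2 and IGFBP4 were lower against 6.1%. This comparison set cells of different clusters against each other, since 93.8% of the 30-day myoid-like cells were in cluster 3 and 86.9% of the 90-day ones in cluster 19.

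In Leydig-like cells IGF1R, IGFBP5 and IGFBP6 were higher, at no more than 12.3 CPM at 90 days, against 30.2% of features, and IGFBP2 was lower against 8.41%. The higher ones had 14, 10 and 6 counts at 7 days and 7, 6 and 11 at 90 days. All genes together had 4130515 and 891720. The intervals of the levels of IGF1R and IGFBP5 overlapped. In pericyte-like cells IGF1 (from 1 to 17 counts) and IGFBP6 were higher against 25.1%, and IGFBP2 and IGFBP4 lower against 6.28%. At 90 days the 17 IGF1 counts lay in 7 of the 378 pericyte-like cells and the 103 IGFBP6 counts in 28 of them. The IGFBP4 ratio of pericyte-like cells, -1.08, was under 2-fold with other doublet calls (-0.93 and -0.87). In blood endothelial-like cells IGF1 was higher, where 24.6% of features were, and IGFBP2 and IGFBP7 were lower against 6.13%. The IGF1 ratio was 8.25-fold, taken against 3 counts in place of the 0 counts at 7 days. The IGF1 level they reached at 90 days was 9.86 CPM. It did not differ beyond counting error from that of T or NK-like cells, the background class (8.64 CPM, log2 ratio 0.19, -1.58 to 2.60). The whole library had 16.1 CPM of IGF1 at 7 days and 75.4 at 90 days, and the part of free RNA was not tested.

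In lymphatic endothelial-like cells IGFBP5 was higher against 17.9% of features, and IGFBP2, IGFBP6 and IGFBP7 lower against 7.98%. IGFBP2 had 11 and 6 counts there at 30 and 90 days and IGFBP6 had 7 and 3, with overlapping intervals of the levels. In macrophage-like cells IGF1, IGF1R, IGFBP6 and IGFBP7 were higher at 60 than at 7 days against 18.2% (IGF1 by 1.18 on the log2 scale, and 0.95 under TMM), and none of the 7 measured was lower, against 7.96%. Of these, IGF1R had 5 and 6 counts at 7 and 60 days and IGFBP6 had 6 and 8, and the intervals of their levels overlapped. IGFBP7 was at 49.9 and 158.6 CPM in these cells, against 1168 and 2139 CPM in the whole library. The part of free RNA in it was not tested. In T or NK-like cells IGFBP7 was higher against 27.6% and IGFBP2 and IGFBP4 lower against 9.0%, of 3 measured, and under TMM none of the 3 was higher. In spermatogonia-like cells IGFBP2 alone was lower against 29.3% of features, and no member was higher, against 13.8%.

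The members' median log2 ratio was 0.42 in stromal-like cells, where that of all features was 0.46, and 0.66 against 0.37 in Sertoli-like cells, -0.20 against 0.37 in myoid-like cells and -0.22 against -0.21 in spermatogonia-like cells. In 9 classes most calls over all features were towards higher values, and in spermatogonia-like cells 32.0% were. TMM scaling moved the median log2 ratio of all features by -0.49 to 0.18 over the 10 classes. The share of calls that were higher went from 80.7% to 61.6% in stromal-like, from 70.0% to 54.96% in Sertoli-like, from 80.7% to 63.7% in myoid-like and from 78.2% to 53.3% in Leydig-like cells. It went from 80.0% to 67.9% in pericyte-like, from 80.03% to 68.4% in blood endothelial-like, from 69.2% to 62.8% in lymphatic, from 69.5% to 51.9% in macrophage-like and from 75.4% to 59.1% in T or NK-like cells. In spermatogonia-like cells it went up to 39.8%.

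With TMM the members higher and lower were 3 and 3 in stromal-like cells, where IGFBP7 came to -1.06 from -0.59, 2 and 3 in Sertoli-like, 1 and 3 in myoid-like and 1 and 2 in Leydig-like cells. They were 2 and 3 in pericyte-like, 1 and 3 in blood endothelial-like, 0 and 3 in lymphatic, 3 and 0 in macrophage-like, 0 and 2 in T or NK-like and 1 and 1 in spermatogonia-like cells.

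**Figure D2:**
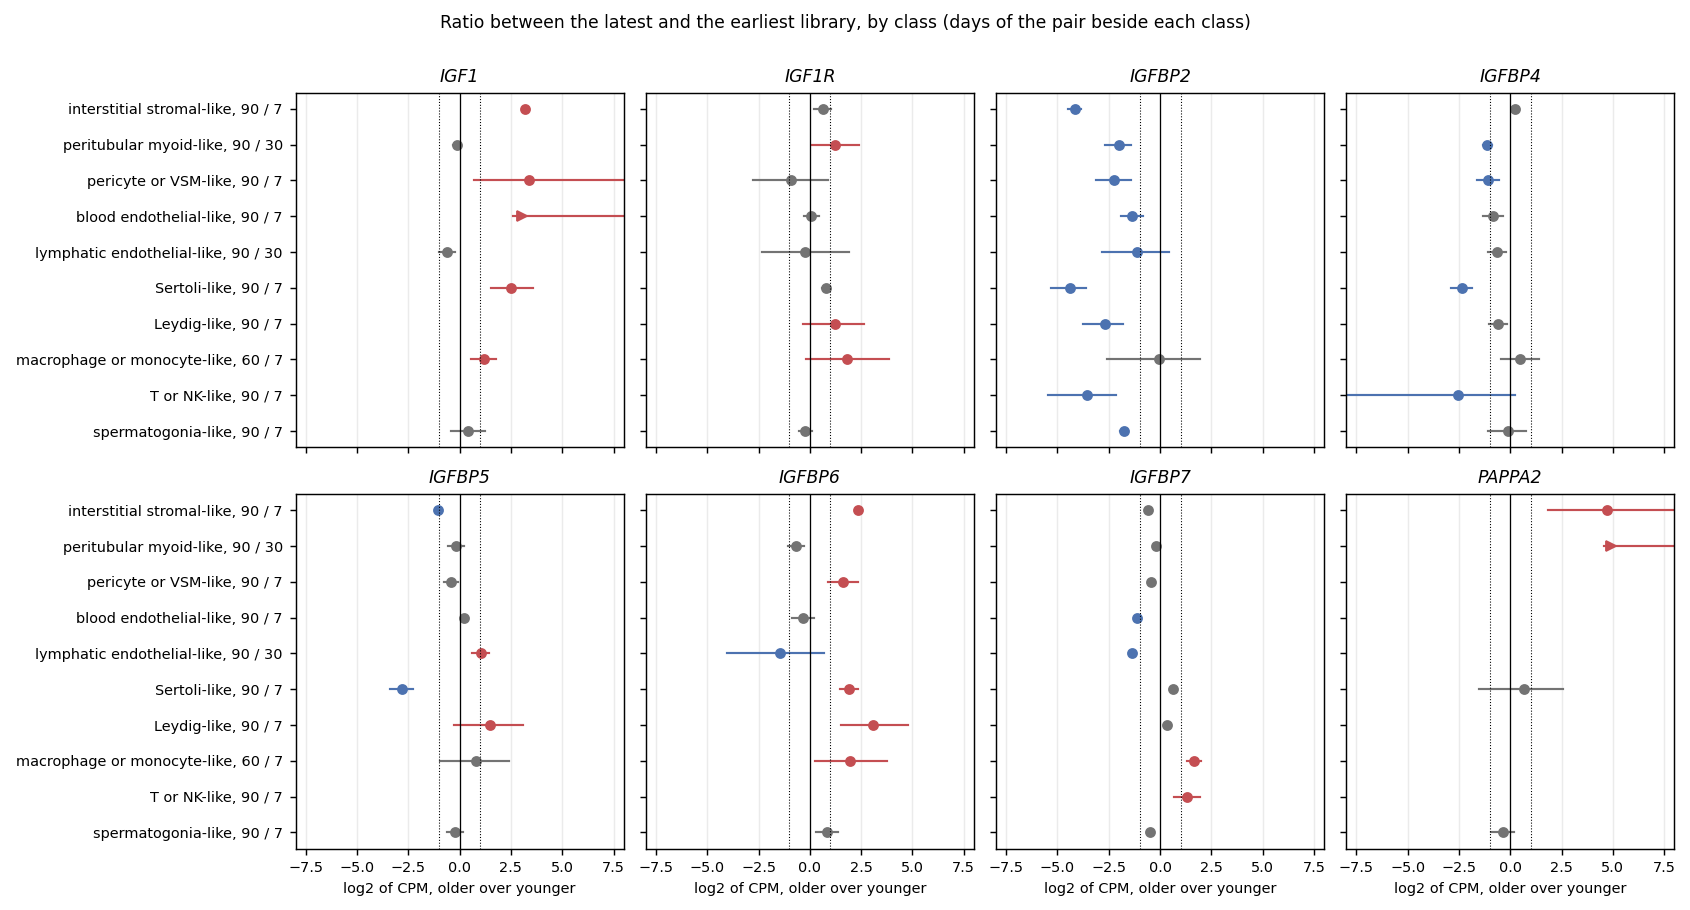
Log2 ratio of each IGF gene's level at the latest to that at the earliest age in 10 cell classes, with exact 95% intervals for counting error and dashed lines at 2-fold. IGFBP2 lies below the lower line in 9 of the 10 classes, and IGF1 and IGFBP6 lie above the upper line in stromal-like and Sertoli-like cells. In Sertoli-like cells these levels were low at 90 days, at 2.01 CPM for IGF1 and 8.03 for IGFBP6. The whole library had 75.4 and 223 CPM.

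Of 33 other genes of the pathway listed, 30 were found. In Sertoli-like cells 6 of 26 measured were higher at 90 than at 7 days and 6 lower, where 32.3% and 13.8% of all features were. Among them IGF2R, the receptor that clears IGF2, was at 37.2, 63.4, 82.7 and 138.6 CPM in order of age (log2 ratio 1.90). HTRA1, a protease that cuts binding proteins, was at 538, 437, 152.5 and 22.4 CPM (log2 ratio -4.59, -4.76 to -4.42), and FOXO3, a transcription factor restrained by AKT, at 98.2, 142, 196 and 260 CPM (1.41). Each of the 3 was ordered by age over the 4 libraries.

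In stromal-like cells 2 of 25 pathway genes were higher (31.6% of all features) and 4 lower (7.54%), among the latter ADAM12, a protease that cuts binding proteins, at 184, 92.4, 80.3 and 63.1 CPM (log2 ratio -1.54). In blood endothelial-like cells 4 of 22 were higher (24.6% of all features) and 3 lower (6.13%). STC1, an inhibitor of pappalysins, was at 76.5, 115, 53.1 and 176 CPM there (1.21), with no single direction over the ages, and GRB10, an adaptor that dampens receptor signalling, was at 134 CPM at 7 days and 48.8 at 90 days (-1.46). In lymphatic endothelial-like cells 3 of 17 were higher (17.9% of all features) and 4 lower (7.98%), among the latter HTRA1. Its log2 ratio was -2.05 (-3.06 to -1.14), from 46 counts at 30 days and 13 at 90 days (123 and 29.8 CPM). HTRA1 was also lower at 90 days in Sertoli-like cells, and the part of free RNA in the lymphatic value was not tested.

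In macrophage-like cells 4 of 18 pathway genes were higher (18.2% of all features) and none lower (7.96%), among the former the insulin receptor substrate IRS2, at 65.1, 82.4 and 190 CPM at 7, 30 and 60 days (log2 ratio 1.55). In spermatogonia-like cells 11 of 28 were lower and none higher, where 29.3% and 13.8% of all features were, among the lower ones the adaptor GRB2, at 167 CPM at 7 days and 67.1 at 90 days (-1.31). Leydig-like cells had 4 higher and 3 lower of 22 (30.2% and 8.41% of all features) and myoid-like cells 4 and 2 of 22 (25.5% and 6.1%). Pericyte-like cells had 2 and 4 of 21 (25.1% and 6.28%) and T or NK-like cells 5 and 2 of 17 (27.6% and 9.0%).

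Over the 35 sums of a class and library with at least 100 cells, the features whose log2 level was most like that of each member were found among 8615 features by Pearson correlation. The sums share libraries, depth and free RNA, so the values are descriptions. They were ITGA9 (0.86), LOXL1 and SESN3 (both 0.80) for IGF1, and EFNB2 (0.85), TRIO (0.82) and HSD11B1 (0.80) for IGF1R. For IGFBP2 the likeness was weakest, with CSRP2 (0.77), TRIB2 (0.76) and SSBP3 (0.73).

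The closest to IGFBP4 were ZCCHC24 (0.93), RARRES2 (0.91) and THRA (0.88), and the closest to IGFBP5 were PEAR1 (0.92), RHOJ and ADGRA2 (both 0.91). IGFBP6 was most like PTN (0.93), COL1A1 (0.92), which is a marker used for the stromal-like class, and COL5A1 (0.90). IGFBP7 was most like the basement membrane collagens COL4A1 and COL4A2 and TGFB1I1 (all 0.93). PAPPA2 was most like CCDC178, ANKRD31 (both 0.82) and TDRD6 (0.81).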

How the data were processed

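Droplet single-cell libraries of testis cells at 4 ages, 1 per age, were analysed from the deposited raw counts of UMIs per gene and barcode, which are not normalized. The files were made with Cell Ranger 5.0.1, per the file headers. The submitters' processing notes also name bcl2fastq and Scanpy 1.7.1, with build Sscrofa11.1. Gene positions come from a RefSeq gene table of that build.

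Barcodes with under 1000 UMIs, under 500 genes or over 15% mitochondrial UMIs (13 genes) were left out. Doublets were the cells with the highest Scrublet scores (Scanpy 1.11.5), in the number expected at 0.8% per 1000 barcodes, and 7829 were removed. At 60 days the removed cells had a median of 1737 UMIs, less than the kept ones, and the automatic threshold would have removed 28.84% of that library.

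Each cell was scored for each class by the mean of log2(1 + counts per 10000) over its markers, of which 126 of 139 were found. A cell that passed 1 required score joined that class. Cells that passed both the stromal and the myoid score (1.6 and 2.4) joined the myoid-like class. Those that passed the pericyte score with either or both of these joined the pericyte-like class. Cells with both endothelial scores joined the lymphatic class, and those with several germ cell scores the latest stage. Any other combination was left without a class. The required scores were set after the distributions of scores were seen, and never from the IGF genes. A rebuilt class can differ from the study's own cell types. For clusters, 2000 variable genes without the IGF genes, 30 principal components, 15 neighbours and Leiden at resolution 1 (leidenalg 0.10.2) were used, without integration.

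Counts were summed per class and library. Levels have exact Poisson intervals, ratios conditional binomial and shares Clopper-Pearson ones, at 95% (SciPy 1.17.1). Only the ratio intervals were checked on simulated data. Those counts were drawn by the Poisson model that the intervals assume, so the check does not cover counts spread unevenly over cells. UMIs remove PCR copies, but cells are not replicates and intervals do not hold the spread between animals. A count of 0 was set against 3 counts over the class. TMM factors came from edgeR 4.0.16 as an alternative. Genes were described in full in classes with at least 100 CPM in some library and at least the level of that whole library. Pathway genes were named at 100 CPM or more in some class and a 2-fold difference there, and 3 features were named by likeness to each member, with log2(CPM + 1) and at least 50 CPM in 1 sum. The IGF genes and the lists were chosen with earlier results of these data known. Fewer cells of a kind within a class and less RNA per cell cannot be told apart in a sum. No sequences are printed, and IGF2 and IGFBP3 were not analysed here.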

Additional observations from a re-analysis of the deposited data

Results flagged for a closer look

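IGFBP7 differed in opposite directions between 2 classes from 7 to 90 days. In T or NK-like cells the log2 ratio of 90 to 7 days was 1.30, from 59.8 to 146.8 CPM, and in blood endothelial-like cells it was -1.14, from 6391 to 2898 CPM, a gap of 2.44. Under TMM the T or NK-like ratio was under 2-fold. The difference was not tested, because each age is 1 library. T or NK-like cells are the class used here for background, and macrophage-like cells had 49.9 CPM at 7 days and 121.1 CPM at 90 days. The part of free RNA in the T or NK-like value was not tested.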

How the results depend on the processing

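For ratios 10 alternatives were run, and a further one without a count minimum for the counts of members. Of 106 counts of members past 2-fold under them, 90 were within 1.5 times the reported one. TMM gave 2 in spermatogonia-like cells (reported 1). A stricter filter on cells (at least 1000 genes, at most 10% mitochondrial) gave 3 in stromal-like (5) and 2 in macrophage-like cells (4). Leiden clusters gave 2 in pericyte-like (4) and 2 in lymphatic cells (4), and a stricter gate gave 2 in spermatogonia-like cells. With 10% of the counts subtracted as free RNA there were 3 in Sertoli-like (5), 2 in Leydig-like (4), 2 in lymphatic (4), 1 in macrophage-like (4) and 3 in spermatogonia-like cells. Thinning to 2000 UMIs left 1 in Leydig-like, 1 in lymphatic, 2 in macrophage-like and 2 in spermatogonia-like cells, and no count minimum gave 5 in T or NK-like cells (3). The cause of these differences was not tested. Of 220 ratios, 200 kept their direction and their side of 2-fold, and IGFBP6 in myoid-like cells came to -1.10 to -1.03 from -0.69 under 3 settings. IGFBP5 in blood endothelial-like cells came to about 0 under TMM from 0.23. Of 542 levels, 8 moved by over 1.5 times, 7 of them in stromal-like cells without clusters 2 and 3, a setting chosen after seeing the data, as was the automatic doublet threshold. The other one was IGFBP2 in spermatogonia-like cells at 7 days, 94.4 CPM thinned to 2000 UMIs (144.9). TMM was not run for single levels, because its factors are defined between libraries. Clusters gave no value for the myoid-like and spermatogonia-like comparisons, and thinning none for T or NK-like cells, for too few cells. Depth limits values from few counts, such as IGFBP2 in T or NK-like cells at 60 days (3 counts, 1.58 to 22.4 CPM). No paired analysis was possible because each age is 1 library.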
